A study of Mus musculus with 4 samples.

Results

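The miRNA profile described here is that of the control rostral telencephalon of the mouse at E11.5 (embryonic day, counted from the vaginal plug). It was read from 2 of the 4 small RNA libraries of the series, those labelled wild type, named here control library 1 and control library 2 by their replicate numbers. The study asked what happens to the early forebrain when Dicer is deleted with Rx-Cre. This Cre is expressed from regulatory sequences of the Rax (Rx) gene. The other libraries come from such mutants. They enter no value below, except alternative values in the closing section that picked rows by totals over all 4 libraries. The genotype label of both controls reads WT, whereas the design text and the methods call them DicerF/F, that is, homozygous for a floxed Dicer allele (Dicer1tm1Bdh/J) without Cre; the 2 descriptions were not reconciled. The floxed line was kept in a C57BL/6 background, and the wild-type and Cre mice in a CD1 background. The piece dissected was the front end of the telencephalic primordium, which holds the prospective olfactory bulb, so each library is a mixture of all cells in that piece, and the number of embryos per library is not given in the sources used here. Nothing in the labels says that the controls came from separate litters or pools, so the spread between them may be technical in part. In bulk tissue, fewer cells of a type and less RNA per cell cannot be told apart.

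Mature miRNAs are short single strands that are cut from hairpin transcripts, mostly by Drosha and Dgcr8 in the nucleus and then by Dicer in the cytoplasm, and are loaded onto Argonaute proteins. They pair with messenger RNAs mainly through the seed, bases 2 to 8 from the 5′ end, so miRNAs that share a seed have overlapping sets of targets and are grouped as a family. In the embryonic forebrain, miR-9 is a classic neural miRNA of progenitors, let-7 and miR-125 are known for their part in developmental timing, and the miR-17 family is known for promoting proliferation. Hairpins come in pairs of arms, 5p and 3p, of which usually a single arm is abundant.

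The hairpins that carry miR-9-5p are shown first because that miRNA alone held 37.1% of the counts on the listed names on average. The RefSeq hairpins lie at chr3:88215598-88215686, chr13:83738814-83738885 and chr7:79505264-79505353 of GRCm38 (mm10), each on the plus strand, and the capitals mark the same 23-base mature miR-9-5p in all 3.

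Mir9-1: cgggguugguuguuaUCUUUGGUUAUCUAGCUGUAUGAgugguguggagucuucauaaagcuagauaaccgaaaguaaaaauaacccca
Mir9-2: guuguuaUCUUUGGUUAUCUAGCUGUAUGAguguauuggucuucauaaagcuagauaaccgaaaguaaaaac
Mir9-3: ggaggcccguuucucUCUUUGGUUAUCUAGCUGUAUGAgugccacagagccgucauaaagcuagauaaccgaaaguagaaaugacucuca

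The loops and flanks differ between these hairpins, but the mature strand does not, so a read of miR-9-5p cannot be assigned to a locus. The deposited counts on the 3 precursors were 408938, 408934 and 408950 in control library 1, which shows that the same reads were counted on each. For this reason the row with the highest total stood for each mature name. The mature sequences of the leading miRNAs follow, from RefSeq (GRCm38.p6), with the seed in capitals, ordered so that members of a seed family stand together.

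miR-9-5p: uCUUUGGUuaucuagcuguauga
miR-99b-5p: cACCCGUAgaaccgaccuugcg
miR-99a-5p: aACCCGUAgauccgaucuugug
miR-100-5p: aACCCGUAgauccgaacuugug
let-7c-5p: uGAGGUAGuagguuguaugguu
let-7a-5p: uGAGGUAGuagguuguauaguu
let-7f-5p: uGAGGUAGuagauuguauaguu
let-7e-5p: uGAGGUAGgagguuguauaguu
let-7d-5p: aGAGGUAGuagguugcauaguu
miR-125b-5p: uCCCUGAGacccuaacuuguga
miR-125a-5p: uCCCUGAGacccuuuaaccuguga
miR-20a-5p: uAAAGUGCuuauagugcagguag
miR-93-5p: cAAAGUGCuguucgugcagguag
miR-17-5p: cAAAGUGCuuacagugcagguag
miR-181b-5p: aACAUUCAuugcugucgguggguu
miR-181a-5p: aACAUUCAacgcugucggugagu
miR-26a-5p: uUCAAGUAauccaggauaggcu
miR-541-5p: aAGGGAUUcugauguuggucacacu
miR-30a-5p: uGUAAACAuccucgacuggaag
miR-7a-5p: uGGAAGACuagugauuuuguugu
miR-744-5p: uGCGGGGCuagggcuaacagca

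Each file lists 1211 pairs of a mature miRNA and a precursor, which cover 1059 mature names, 65 of them with several rows. Summed over mature names, control library 1 held 1299076 counts and control library 2 held 1133568. At least 1 count was found for 534 names in library 1 and 485 in library 2, and for 429 names (40.5% of those listed) in both. The 105 names seen only in library 1 reached at most 10 counts and together held 0.0144% of its counts, and the 56 seen only in library 2 reached at most 4 counts and held 0.00750%. At least 10 counts were found for 284 and 272 names. The remaining 469 names had no count in either library, which at these depths allows a level of up to 2.31 CPM (counts scaled to 1000000 per library) in library 1 and 2.65 CPM in library 2, taking 3 counts as the floor. Intervals and floors in this text cover counting error only, because reads without molecular identifiers are not independent molecules.

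The list is mostly one of 5p arms. Names ending in 5p made up 785 of the 1059 and held 99.0% and 98.9% of the counts of libraries 1 and 2, whereas the 109 names ending in 3p held 0.314% and 0.457%. Only 113 of 1023 precursors list both arms. Every share, rank and family total in this text is therefore of the listed names, mostly 5p arms, and not of all mature miRNAs of the tissue. A low or zero value on a 5p row therefore says nothing about the 3p arm of the same hairpin, which for several miRNAs below (miR-124, miR-128, miR-126a, the miR-200 family, miR-92b, miR-214) is the arm known to be the more abundant, and was not analysed here.

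The profile was dominated by a small number of miRNAs. By mean share, 5 names held 50% of the counts, while library 1 needed 6 names and library 2 needed 3, and the steep fall of level with rank had nearly the same shape in both libraries beyond the highest ranks. The most abundant miRNA took 31.5% and 42.6% of all counts, the top 10 by mean level took 60.3% and 67.5% (63.9% ± 5.10, SD, n = 2), the top 50 took 94.1% and 94.2%, and the top 100 took 98.4% in both. By mean share, 37 names held 90% of the counts and 121 held 99%. At the other end, 145 names averaged below 1 CPM and together held 0.00847% and 0.00662%. The effective number of miRNAs, the exponential of the Shannon entropy, was 27.8 in library 1 and 19.4 in library 2, so library 2 was the more concentrated.

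**Figure D1:**
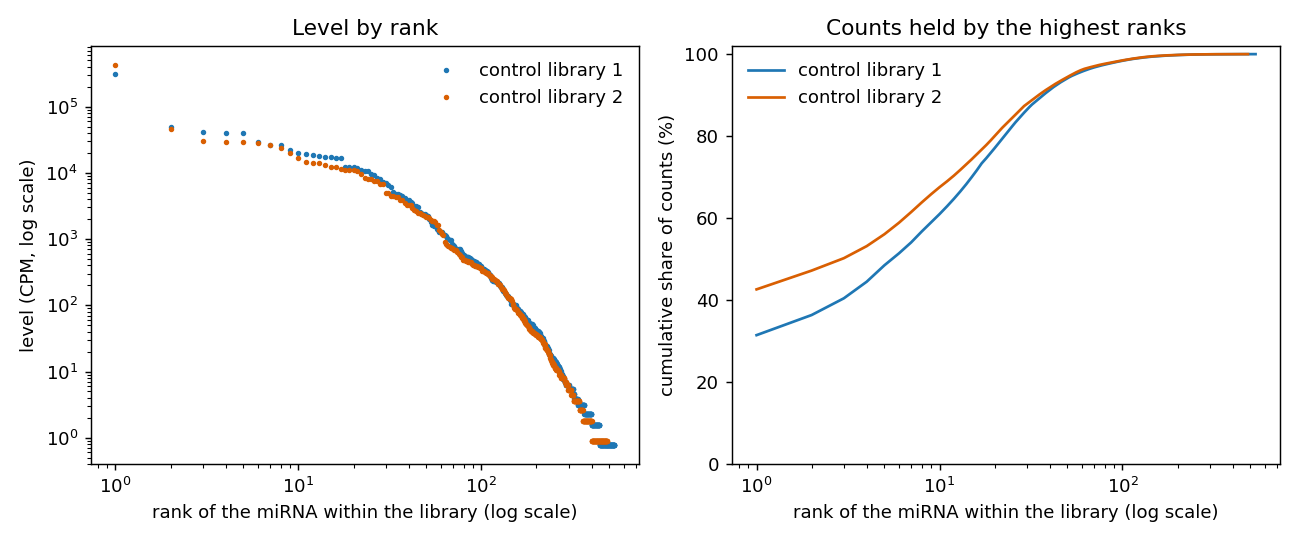
Left, level of each detected miRNA (CPM, log scale) against its rank within its library (log scale). Right, cumulative share of counts in percent against rank, where the curves start at 31.5% and 42.6% and meet near rank 50 at about 94.1% and 94.2%.

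miR-9-5p led the ranking in both libraries by a wide margin. Its level was 314801 CPM in library 1 and 426422 CPM in library 2, or 31.5% (95% Wilson interval 31.4 to 31.6) and 42.6% (42.6 to 42.7) of counts. The intervals are far apart, so the spread between libraries (37.1% ± 7.89, SD, n = 2) is larger than the counting error. The next miRNA, miR-99b-5p, stood at 49066 and 45818 CPM. Since shares sum to the whole, the higher share of miR-9-5p in library 2 lowers the shares of all other names there; with miR-9-5p left out of the total, miR-99b-5p held 7.16% and 7.99% of counts.

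**Figure D2:**
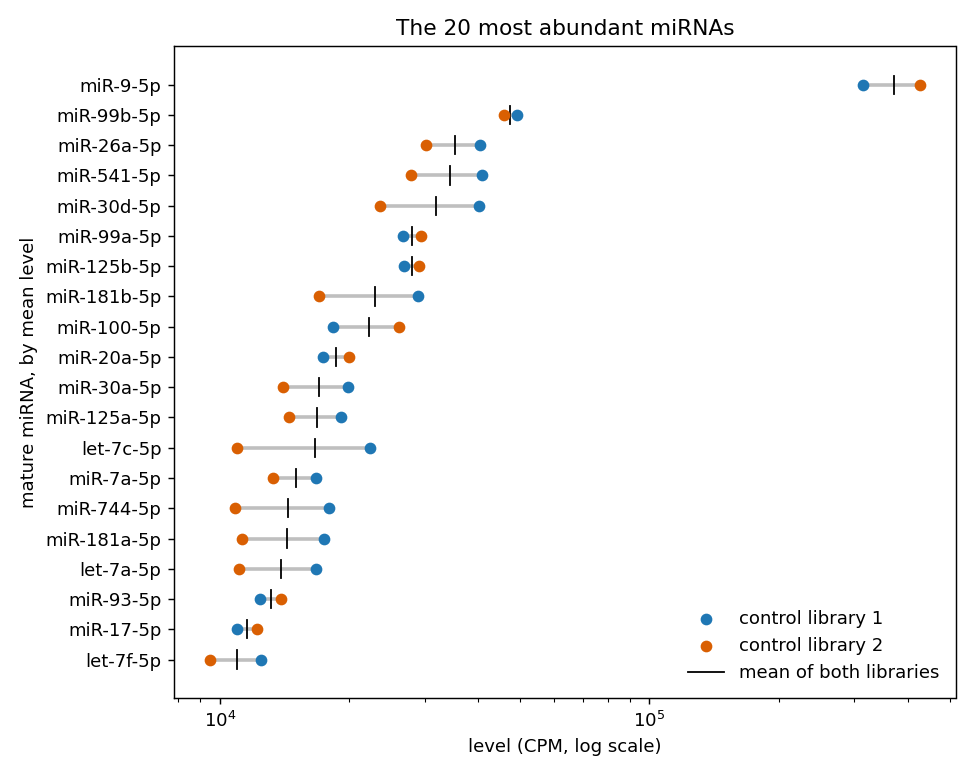
Level (CPM, log scale) of the 20 miRNAs with the highest mean level, with 1 point for each control library and a black tick at the mean. miR-9-5p stands apart at 314801 and 426422 CPM, and the points of most neighbours overlap.

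Ranks below the first were less firm. The top 10 of the 2 libraries shared 8 names, the top 20 shared 18 and the top 100 shared 96. Among the 19 neighbouring pairs in the top 20, the ranges of the 2 libraries were separate for 3 pairs, miR-9-5p over miR-99b-5p, miR-99b-5p over miR-26a-5p, and miR-93-5p over miR-17-5p, and overlapped for the other 16. The order within the top 20 is thus, for the most part, within the spread of the libraries.

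Grouped by seed, the counts fell into a few families. The detected sequences formed 417 seed groups, and the 5 largest, with 22 members at a mean of at least 10 counts, held 59.1% of the counts of library 1 and 68.1% of library 2. The 10 largest held 78.5% and 81.6%. The largest group, seed CUUUGGU, consisted of miR-9-5p alone.

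**Figure D3:**
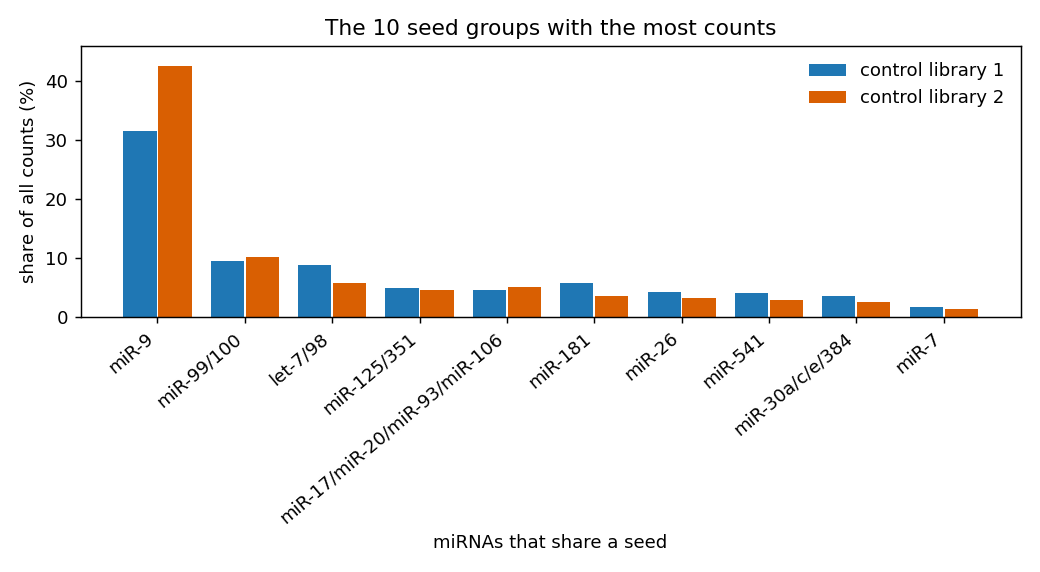
Share of all counts in percent (bars from 0, 1 per control library) for the 10 seed groups with the highest mean share. miR-30d-5p had no sequence matched and is in no group. The miR-9 bars stand at 31.5% and 42.6%, the miR-99/100 bars at 9.41% and 10.1%, and the let-7/98 bars at 8.72% and 5.67%.

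The second group, seed ACCCGUA, holds miR-99b-5p, miR-99a-5p and miR-100-5p, which come from transcripts that also carry let-7 and miR-125 hairpins. It took 9.41% and 10.1% of counts. miR-99a-5p was at 26650 and 29411 CPM, and miR-100-5p at 18372 and 26166 CPM. Mir99a lies at chr16:77598936-77599000, in an intron of the non-coding gene Mir99ahg. The 3 sequences differ from each other at 1 to 4 of 22 positions, so reads could be shared between them, and how many were was not measured.

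let-7, seed GAGGUAG, was the third family, at 8.72% and 5.67% of counts. Its 9 members with a mean of at least 10 counts ran from miR-98-5p, with a mean of 487 CPM, to let-7c-5p, with a mean of 16656 CPM. let-7c-5p was at 22353 CPM in library 1 and 10960 CPM in library 2, let-7a-5p at 16753 and 11075 CPM, and let-7f-5p at 12445 and 9467 CPM. No member was dominant: let-7c-5p held 23.1% of the family's counts, and let-7e-5p, let-7i-5p and let-7g-5p followed with means of 9623, 9446 and 8348 CPM. let-7d-5p, at 2524 and 1373 CPM, and let-7b-5p, at 832 and 383 CPM, were lower. Pairs of these sequences differ at 1 to 6 of 22 positions, the seed being the same in all. let-7j, whose listed sequence has another seed (GAGGUAU) and so was not counted in this group, stood at 225 and 234 CPM, and let-7k had 1 and 2 counts.

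The miR-125 group, seed CCCUGAG, is the vertebrate counterpart of the worm timing miRNA lin-4. It held 4.99% and 4.63% of counts. miR-125b-5p was at 26808 and 29090 CPM, miR-125a-5p at 19184 and 14484 CPM, and miR-351-5p at 3867 and 2733 CPM. The libraries differed in opposite directions for the miR-125b and miR-125a rows.

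The miR-17 group, seed AAAGUGC, comes from 3 related clusters of hairpins on different chromosomes. It held 4.52% and 5.05% of counts. miR-20a-5p was at 17352 and 19969 CPM, miR-93-5p at 12385 and 13900 CPM, and miR-17-5p at 10969 and 12215 CPM. All 3 were higher in library 2, by at most 1.15-fold. By cluster, the hairpins of Mir17hg (chr14:115043671-115044506) summed to 29168 and 33016 CPM over the names with a single hairpin. Those in an intron of Mcm7 (chr5:138165321-138165818) summed to 14656 and 15451 CPM, and the X-linked cluster (chrX:52741838-52742567) to 4164 and 3987 CPM. These sums also hold members with other seeds, among them miR-18a-5p, miR-92a-1-5p and miR-25-5p.

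Below the 5 largest groups, miR-181 (seed ACAUUCA) held 5.74% and 3.52%, with miR-181b-5p at 28995 and 16988 CPM, miR-181a-5p at 17463 and 11260 CPM, and miR-181d-5p at 10735 and 6825 CPM. miR-26a-5p, which is made from hairpins within the phosphatase genes Ctdspl and Ctdsp2, was at 40430 and 30212 CPM, and miR-26b-5p at 2225 and 1786 CPM. The group with seed GUAAACA, which holds miR-30a-5p, miR-30c-5p, miR-30e-5p and miR-384-5p, took 3.55% and 2.60%. miR-30d-5p, which had no sequence matched and so no seed group, was at 40092 and 23544 CPM, miR-30a-5p at 19922 and 14035 CPM, and miR-30c-5p at 8170 and 6865 CPM. Counted by name, the 5 miR-30 members summed to 75665 and 49593 CPM, a mean of 62629 CPM. That mean is above those of the miR-125 and miR-17 groups (48083 and 47832 CPM). In library 2 alone, the miR-17 group was higher (50480 CPM). The place of miR-30 below the 5 largest groups thus rests on members without a matched sequence. miR-7a-5p, a miRNA of neural and endocrine cells, stood at 16743 and 13325 CPM. miR-744-5p, from an intron of Map2k4 (chr11:65734733-65734832), stood at 17914 and 10873 CPM. With total counts as the scale, all single miRNAs whose levels are given in this paragraph were lower in library 2.

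Sequence features of the profile were read from the 895 names with a RefSeq mature sequence, which held 93.7% and 95.3% of the counts. Argonaute proteins are known to bind a 5′ U or A well. Sequences that start with U held 69.4% and 73.2% of counts but made up 44.4% of the names detected in both libraries, and those that start with G held 1.83% and 1.66% of counts and 12.1% of such names. Without miR-9-5p the share of U was 53.9% and 51.5%, so a large part of it was that miRNA alone. Among the 19 sequences of the top 20, 11 start with U. By length, 23 bases held 49.0% and 57.9% of counts and 22 bases held 37.4% and 31.7%, while 22 bases was the most frequent length among names (44.4%). miR-9-5p has 23 bases and miR-541-5p 25.

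Placed on the GRCm38 genome, 47 of the names detected in both libraries come from several hairpins and held 52.7% and 59.1% of the counts, or 21.2% and 16.5% without miR-9-5p. Another 304 names have a single hairpin and held 36.5% and 32.0%. Of these, 145 lie in introns of protein-coding genes (13.2% and 9.55% of counts), 22 in their exons (0.884% and 1.30%), 50 in non-coding host genes (15.5% and 14.9%) and 87 between genes (6.88% and 6.33%). The remaining 78 names had no hairpin in the RefSeq table used and held 10.9% and 8.83% of counts.

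Hairpins that lie close together are often made from 1 transcript, yet many of their 5p rows stood at unlike levels. With hairpins joined when at most 10000 bases apart, 21 clusters held at least 2 single-hairpin names with a mean of at least 10 counts. The highest member was over 10-fold above the lowest in 12 of them, and the median ratio was 17.3. In the Mir17hg cluster, miR-20a-5p averaged 18660 CPM and miR-92a-1-5p 209 CPM. The pair of miR-125a-5p and let-7e-5p at chr17:17830352-17830879 had means of 16834 and 9623 CPM, a ratio of 1.75. Lower in the ranking, miR-27a-5p and miR-24-2-5p had a ratio of 1.03, and miR-200a-5p and miR-200b-5p of 1.17. The 3p arms of such hairpins enter none of these ratios.

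Rows of the imprinted Dlk1-Dio3 locus, from which miRNAs are expressed from the maternal chromosome, held a large share of the listed counts. The 47 listed names held 7.34% and 6.17% of all counts, or 10.7% and 10.8% with miR-9-5p left out of the total. All 44 names placed lie on chromosome 12, between positions 109563692 and 109747960. Of the 47 names, 41 had counts in both libraries, beside 429 of all 1059 names. miR-541-5p (chr12:109742409-109742498), at 40791 and 27843 CPM, held 55.6% and 45.1% of the counts of the 47 names. miR-379-5p followed at 9511 and 10725 CPM, and miR-382-5p at 4208 and 4271 CPM. miR-544-5p and miR-654-5p had no count in either library.

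A few rows could not be told apart by reads. miR-486a-5p and miR-486b-5p had identical counts (6123 and 5059), as did miR-299a-3p and miR-299b-3p (704 and 380), miR-467a-5p and miR-467b-5p (199 and 286), and miR-669a-5p and miR-669p-5p (114 and 101), so the same reads stand on both names of each pair. Among the 27 names with several precursor rows and a mean of at least 100 counts, the rows agree within 1% for 16, and they differ by over 50% for 2. Of the 3p rows, miR-143-3p was the most abundant, at 2004 and 3867 CPM against 16.2 and 26.5 CPM for miR-143-5p. miR-299a-3p and miR-299b-3p, on the same reads, came next with 542 and 335 CPM, then miR-7224-3p with 18 and 9 counts and miR-7648-3p with 3 and 5.

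The label of the tissue was then checked against lists of miRNAs known to mark cell types. For brain, miR-9-5p led, miR-92b-5p was at 3841 and 1901 CPM, and miR-135a-5p at 726 and 799 CPM. miR-124-5p, the minor arm of the best known neuronal miRNA, was at 333 and 242 CPM. Among 12 names listed for differentiating neurons, 11 had counts in both libraries, beside 429 of all 1059 names. The list was led by miR-7a-5p and then by miR-218-5p (1102 and 1294 CPM) and miR-129-5p (1050 and 772 CPM). Apart from miR-124-5p, the other listed names were at 74.7 CPM or less in both libraries. Among them, miR-128-1-5p was at 74.7 and 46.8 CPM, miR-138-5p at 41.6 and 37.1 CPM, and miR-137-5p at 13.9 and 5.29 CPM. miR-153-5p had 1 and 0 counts. The glial miRNAs miR-338-5p (74.7 and 34.4 CPM) and miR-219a-5p (70.0 and 61.8 CPM) were low.

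miRNAs of the Hox clusters, which are known from the hindbrain, spinal cord and trunk and not from the forebrain, were present at low levels. miR-10b-5p was at 241 and 269 CPM, miR-10a-5p at 218 and 250 CPM, and miR-196a-5p at 76.2 and 45.9 CPM. The list summed to 547 and 574 CPM, or 0.0547% and 0.0574% of counts, and miR-615-5p had 0 and 1 counts.

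Markers of cells outside the neuroepithelium were also counted. The red blood cell list (miR-486a-5p, miR-451a and miR-144-5p) summed to 5314 and 5177 CPM, nearly the same in both libraries when scaled by total counts. miR-486a-5p made up most of it, at 4713 and 4463 CPM. miR-451a, which is cut by Ago2 and not by Dicer, was at 583 and 680 CPM, and miR-144-5p at 17.7 and 33.5 CPM. The white blood cell list summed to 752 and 577 CPM, led by miR-155-5p (450 and 273 CPM), miR-146a-5p (221 and 191 CPM) and miR-142a-5p (54.7 and 73.2 CPM). The endothelial miR-126a-5p was at 235 and 328 CPM.

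The mesenchyme list was higher in library 2 for 6 of 6 names. miR-199a-5p, made in fibroblastic and skeletal mesenchyme, was at 3645 and 7963 CPM. miR-143-3p, known from smooth muscle, was at 2004 and 3867 CPM, and miR-199b-5p at 219 and 483 CPM. The list summed to 6119 CPM (0.612% of counts) in library 1 and 12876 CPM (1.29%) in library 2, a ratio of 2.10. Some of these hairpins share a transcript, so the 6 names are not 6 independent readings.

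miRNAs of the eye and of sensory organs were present too. The miR-183 cluster (chr6:30165918-30169737), known from photoreceptors, hair cells and olfactory epithelium, had miR-182-5p at 1403 and 2909 CPM, miR-183-5p at 1656 and 2661 CPM and miR-96-5p at 7.70 and 36.2 CPM. All of the cluster was higher in library 2. miR-204-5p, of the pigmented epithelium and lens, was at 125 and 126 CPM, and miR-184-5p, of the cornea and lens, had no count. Of the epithelial list, miR-205-5p was at 132 and 199 CPM, miR-200a-5p at 33.1 and 75.9 CPM and miR-200b-5p at 20.8 and 72.3 CPM. By contrast, miR-200c-5p, miR-429-5p and miR-203-5p had no count. The zeros in this paragraph, that of miR-184-5p included, hold for the 5p rows only.

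Most rows listed for distant organs had few counts or none. In the muscle and heart list, 7 of 8 names had no count, beside 469 of all 1059 names. These were both miR-1a 5p rows, miR-133a-5p, miR-133b-5p, miR-206-5p, miR-208a-5p and miR-208b-5p, and miR-499-5p had 13 and 15 counts. miR-122-5p, the liver miRNA, had 34 and 14 counts, and miR-122-3p none. miR-375-5p had none, and miR-217-5p, known from pancreas, was well above the floor at 60.0 and 130 CPM. The pluripotent list (miR-290 and miR-302 clusters) summed to 39.3 and 59.1 CPM, nearly all on miR-292a-5p (24 and 34 counts) and miR-302a-5p (22 and 30 counts), and miR-302b-5p, miR-302c-5p and miR-367-5p had none. Most of these rows are minor arms, so the zeros hold for the 5p rows only.

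Further lists gave these levels. In the miR-34 family, which is known as a p53 target and from multiciliated cells, miR-34c-5p was at 396 and 361 CPM, miR-449a-5p at 299 and 176 CPM, and miR-34b-5p at 88.5 and 30.9 CPM, while miR-449b had no count. In the miR-15 and miR-16 family, miR-16-5p was at 2335 and 2328 CPM, miR-15b-5p at 417 and 591 CPM, and miR-322-5p at 80.8 and 127 CPM. Of miRNAs made without Drosha or Dgcr8, miR-484 was at 3131 and 2122 CPM and miR-877-5p at 500 and 399 CPM, and 4 further names had at most 6 counts.

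The 2 libraries were compared over the 281 miRNAs with a mean of at least 10 counts. Pearson's r of log2(CPM + 1) was 0.982 and Spearman's rho 0.974 across these miRNAs, which share the 2 libraries and are not independent points. The log2 ratio of library 2 to library 1 on the same scale had an SD of 0.63, where Poisson counting alone would give 0.26. The excess held at every depth. The SD was 0.73 for miRNAs with a mean of 10 to 100 counts, 0.51 from 100 to 1000 counts and 0.55 from 1000 counts, where counting alone would give 0.03. The counts are thus not copies of each other, and the 2 libraries were both kept. Whether they came from separate tissue was not tested. With 2 libraries of 1 group no test between them is possible, and the differences below are descriptions of these libraries.

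Between the libraries, 35 of 281 miRNAs (12.5%) were over 2-fold apart, 13 higher and 22 lower in library 2. The direction of this split depends on the scaling. The median log2 ratio was -0.20 with the total count as the scale, and 0.06 with miR-9-5p left out of the total, 0.04 with edgeR's TMM factors and -0.03 with DESeq2's size factors. Under these 3 scalings the split was 17 higher and 9 lower, 17 and 9, and 16 and 9. Differences are therefore best read against the median of -0.20.

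**Figure D4:**
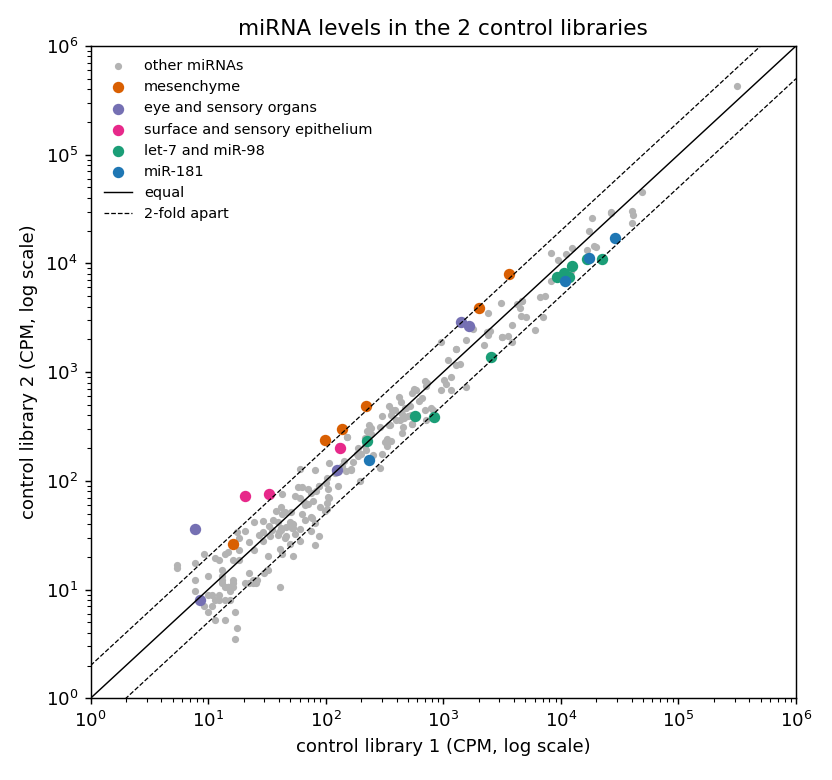
Level in control library 2 against control library 1 (CPM, both axes log) for the 281 miRNAs with a mean of at least 10 counts, with lines at equality and at 2-fold. Points of the mesenchyme and sensory lists lie mostly above the line of equality, and let-7 and miR-181 points mostly below it.

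Among the 157 miRNAs with a mean of at least 100 counts, 6 were over 2-fold higher in library 2 and 7 over 2-fold lower. The 5 with the highest ratio were miR-214-5p (log2 ratio 1.27), miR-199b-5p (1.14), miR-199a-5p (1.13), miR-145a-5p (1.11) and miR-217-5p (1.10). The first 4 of these belong to the mesenchyme list, and miR-217-5p, known from pancreas, rests on 78 and 147 counts. The 5 with the lowest ratio were miR-423-5p (-1.30, from 6064 to 2459 CPM), miR-335-5p (-1.12, from 7032 to 3225 CPM), miR-92a-1-5p (-1.12), let-7b-5p (-1.12) and miR-25-5p (-1.11). miR-92a-1-5p and miR-25-5p come from the related Mir17hg and Mcm7 clusters.

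Some lists moved together between the libraries, and others were split. All 6 mesenchyme names were higher in library 2 (median log2 ratio 1.12) under each of the 4 scalings, beside 106 of all 281 miRNAs (37.7%) with total counts; over all 281, 53.7% were higher with miR-9-5p left out of the total, 52.0% with TMM factors and 48.0% with DESeq2's size factors. For the eye and sensory list it was 4 of 5 names (median 0.68) with total counts and 5 of 5 under the other 3 scalings, and for the epithelial list 3 of 3 (median 1.17) under all 4. In the other direction, 9 of 10 let-7 and miR-98 names (median -0.57) and 4 of 4 miR-181 names (median -0.64) were lower in library 2 under all 4 scalings. For miR-30, 5 of 5 names were lower with total counts (median -0.51) but 3 of 5 with miR-9-5p left out of the total and 4 of 5 with TMM factors and with DESeq2's size factors. For differentiating neurons, 9 of 11 were lower with total counts (median -0.44), 7 of 11 without miR-9-5p and with TMM factors, and 8 of 11 with DESeq2's size factors. The miR-17 family had 4 of 6 names higher with total counts and 6 of 6 under the other scalings. The red blood cell list had 2 of 3 names higher with total counts (median 0.22). Under the other scalings it had 3 of 3 (medians 0.39 to 0.48). The white blood cell and Hox lists each had 2 of 4 names higher with total counts. The Dlk1-Dio3 list was divided, with 18 of 33 names higher (median 0.02), and 20 to 23 of 33 under the other scalings. Members of a family can share reads and members of a cluster share a transcript, so these counts are not of independent readings. The part of tissue composition in any of these differences was not tested.

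**Figure D5:**
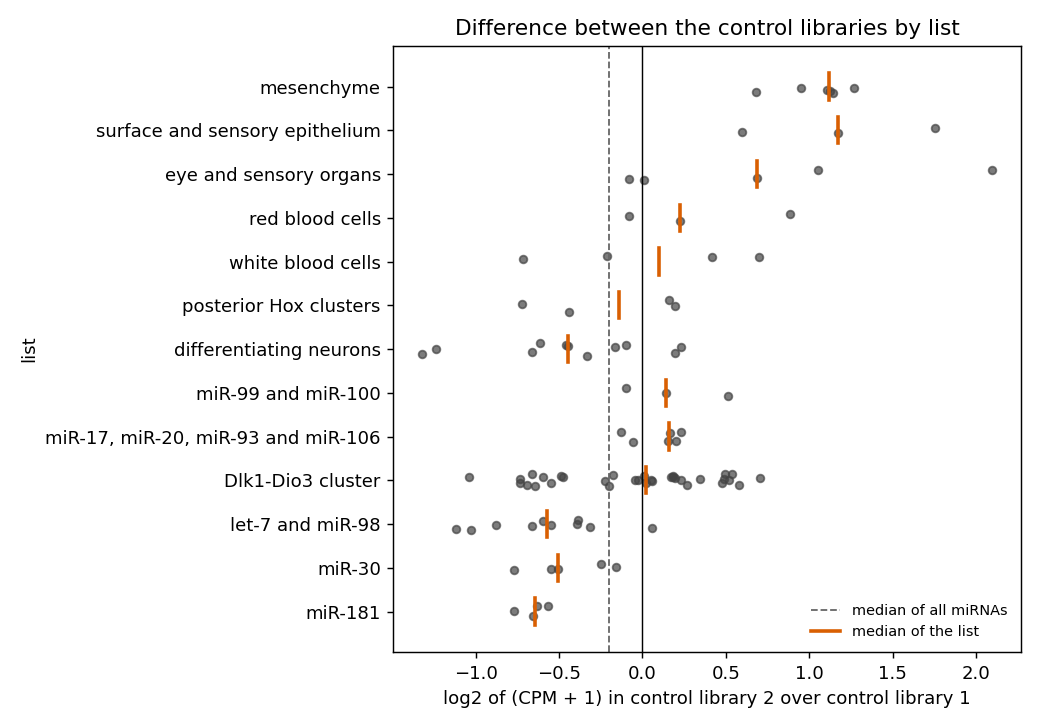
Log2 ratio of (CPM + 1) in control library 2 over control library 1, with 1 point for each miRNA with a mean of at least 10 counts, by list. Orange ticks are list medians (1.12 for mesenchyme, -0.57 for let-7 and miR-98), and the dashed line is the median of all 281 miRNAs (-0.20).

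Base composition also moved with the difference. Over the 237 of these miRNAs with a sequence, Spearman's rho between GC content and the log2 ratio was -0.22, across miRNAs that share both libraries. The median ratio was 0.00 for the 22 sequences with at most 35% GC, -0.18 for the 57 up to 45%, -0.08 for the 99 up to 55%, -0.44 for the 40 with over 55% and up to 65%, and -0.55 for the 19 above 65%. Of those 19, 3 were higher in library 2, beside 85 of all 237. The medians did not fall steadily across the bins. Length showed little relation, with a rho of -0.06. The part of base composition in the differences between lists was not tested.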

How the data were processed

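The authors sequenced small RNA (NEB Next small RNA kit, 1 µg of total RNA per library, 75-base single-end reads on an Illumina HiSeq) and counted reads with miRDeep2 on mm10 and miRBase version 22, and the deposited values are whole read counts per pair of mature miRNA and precursor, with no normalization. The submitters' processing notes also name FastQC, Trim Galore, HISAT2 and HTSeq without a role. The version of miRDeep2 and its settings for reads that match several miRNAs are not given in the sources used here.

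The row with the highest total over both control libraries was kept per mature name, and CPM are counts scaled to 1000000 over mature names, from sums of 1299076 and 1133568. Ratios are of log2(CPM + 1). Mature sequences and hairpins came from RefSeq (GRCm38.p6) and host genes from GENCODE. Python 3.11.15 (pandas 2.3.3, scipy 1.17.1) was used, and edgeR 4.0.16 and DESeq2 1.42.0 (R 4.3.3) gave scaling factors only. No test was run, since there is 1 group of 2 libraries. Scripts were checked on simulated counts.

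miRNAs named in full were the 20 with the highest mean CPM, the 3 most abundant of each list, the 5 highest and 5 lowest ratios among those with a mean of at least 100 counts, the 5 most abundant 3p rows and listed members at 0; a few others are named to describe a group and were chosen after their values were seen. The members and lists were chosen with earlier results of these data known.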

Additional observations from a re-analysis of the deposited data

How the results depend on the processing

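Of 62 alternative values, 52 stayed close to the reported one and 10 did not. Close meant within 1 SD of the 2 libraries for shares of counts and within 1.5 times for other measures. A share from a single library lies within that SD almost by construction, since the SD comes from the same 2 libraries. The correlation could also hardly move by 1.5 times. The 52 are therefore no measure of robustness. They include values with rows picked by totals over all 4 libraries of the series, mutants included. With counts summed over the precursor rows of a name, which counts the same reads repeatedly, miR-9-5p held 57.4% of counts, the 10 most abundant miRNAs 76.9%, the 5 largest seed families 76.5% and sequences that start with U 83.1%. With miR-9-5p left out of the total, the 10 most abundant held 45.4%, the 5 largest families 49.7% and sequences that start with U 52.7%. A minimum of 10 counts in both libraries left 265 names. Without a filter on low counts 120 miRNAs were over 2-fold apart, and with a mean of at least 100 counts 13 were; both settings change how many miRNAs are compared, and the share over 2-fold apart also differed by depth (17.7% from 10 to 100 counts).

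From a single library, detected names numbered 485 to 534, miR-9-5p held 31.5% to 42.6%, the top 10 held 61.0% to 67.5%, 35 to 37 names held 90% of counts, the 5 largest families held 60.3% to 68.1% and U held 69.4% to 73.2%. Measures of agreement need both libraries and could not be computed without either. Grouping miR-30 by name, chosen after seeing the data, gave 65.1% for the 5 largest families, miR-30 then among them. No paired analysis was possible because a single group is described and no test was run. Depth limits names near the floor, and rows of 1 arm leave the other arm undescribed.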
